A study of Mus musculus with 8 samples.

Results

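The epithelial sodium channel and the genes of its aldosterone response were examined in whole kidneys of 10-day-old (P10) mice. The genes were chosen by name, with earlier results of these data known. They were the 3 channel subunit genes *Scnn1a*, *Scnn1b* and *Scnn1g*, and *Hsd11b2*, *Sgk1*, *Wnk1*, *Wnk4*, *Nedd4l*, *Prss8* and *Tsc22d3*. Every probe that the array annotation gives to these 10 genes was taken, which made 14 of the 25697 probes, for 10 of the 16593 genes named on the array. All 14 were detected on at least 3 of the 8 arrays and so were among the 14221 probes tested.

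Kidneys of 4 *Pkd1*V/V mice were compared with kidneys of 4 wild-type littermates, on Illumina bead arrays, with 1 array for each labelled kidney. *Pkd1*V/V mice are homozygous for a hypomorphic allele of *Pkd1*, the mouse gene for polycystin-1, and their kidneys are cystic at this age. The allele is carried by every cell of the animal, so no promoter or Cre restricts it to a tubule segment. The labels give no treatment, and no source used here gives the sex or the litters of these mice, while the strain is stated only in the methods for another *Pkd1* line. The code of *Pkd1*V/V replicate 4 differs between its label and the study's supplementary description, and the label was followed.

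The epithelial sodium channel is the pore through which principal cells of the collecting duct, and cells of the connecting tubule and late distal convoluted tubule, take sodium back from the urine. It is built from an alpha, a beta and a gamma subunit. Aldosterone, acting through the mineralocorticoid receptor, raises the abundance and surface residence of the channel, in part by inducing the kinase SGK1, which restrains the ubiquitin ligase NEDD4-2 that otherwise removes the channel from the membrane.

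Values are signals in arbitrary units of intensity after quantile normalisation, which gives all arrays the same distribution, and they do not compare one probe's level with another's. Changes are log2 differences of *Pkd1*V/V minus wild-type kidneys, computed on the log2 of the signal plus 16, which understates the change of dim probes. A probe was called higher or lower when limma's *P*, adjusted over all 14221 probes by the Benjamini-Hochberg procedure, was under 0.1. Whole kidney RNA was measured, so fewer cells of a type and less RNA per cell cannot be told apart. *P* values set the difference between the group means against the variation between these 8 kidneys.

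All 8 arrays carried kidney transcripts, such as *Slc34a1* of the proximal tubule, with signals of 3471 to 6559 in *Pkd1*V/V and 12744 to 16249 in wild-type kidneys. Between 51.8% and 54.1% of probes were detected in *Pkd1*V/V and between 52.0% and 54.3% in wild-type kidneys, and arrays of 1 group correlated at 0.96 to 0.99. A pair of kidneys stood apart. *Pkd1*V/V replicate 1 carried transcripts of the adrenal cortex, with 5 of 8 markers detected there, against 0 or 1 in every other kidney. *Cyp11b1*, the enzyme that makes corticosterone, had a signal of 332.9 there and 0 elsewhere. That kidney also had the highest summed signal of macrophage and leukocyte markers, 8271 against at most 3923 in the other *Pkd1*V/V kidneys. Its proximal tubule sum was the lowest, 3733 against at least 6744 in the others of its group. Wild-type replicate 4 carried liver transcripts, with a summed signal of 68237 over 9 liver markers, against at most 10421 in the other wild-type kidneys. Values without these kidneys are given beside the results they move most.

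Across the array 2166 probes (15.2%) were higher and 2087 (14.7%) were lower in *Pkd1*V/V kidneys, which made 4253 (29.9%) called in either direction. Of the 14 probes of the channel and its aldosterone response, 5 were higher and 6 were lower, and 3 were not called. The groups did not overlap for 9 of the 14, against 3897 probes (27.4%) across the array. By gene, 5 had a probe that was higher, 4 had a probe that was lower, and *Tsc22d3* had neither. The median change was -0.15 over the 14 probes and 0.01 over all probes tested. The 3 subunit genes, *Hsd11b2* and *Nedd4l* were higher, and *Sgk1*, *Wnk4*, *Prss8* and 2 of 3 *Wnk1* probes were lower. With *Pkd1*V/V replicate 1 and wild-type replicate 4 both left out, again 5 probes were higher and 6 were lower. When each of the 8 kidneys was left out in turn, 10 of the 11 called probes kept their call every time, and the exception was a dim *Wnk1* probe.

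**Figure D1:**
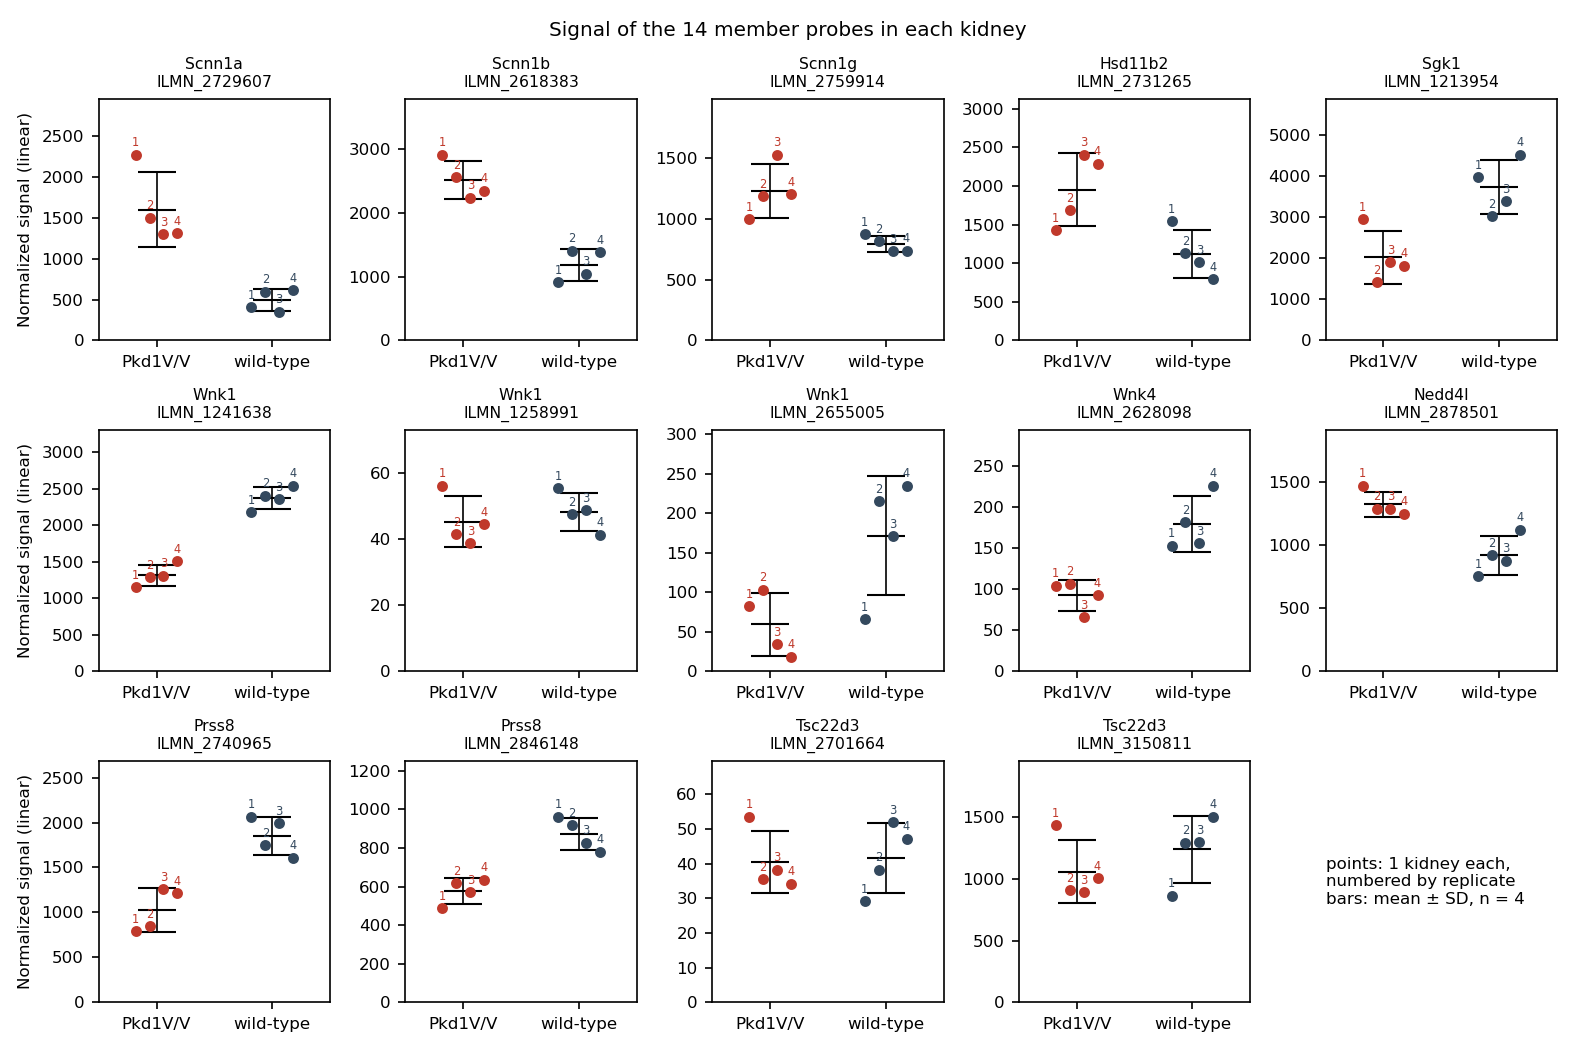
Normalised signal of each of the 14 probes in every kidney, with *Pkd1*V/V kidneys left of wild-type kidneys, each point a kidney and each bar the mean ± SD of a group (n = 4). *Scnn1a* kidneys sit between 1301 and 2272 in *Pkd1*V/V and between 351 and 615 in wild-type.

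The alpha subunit gene *Scnn1a*, whose product is needed for channel assembly and is the subunit that aldosterone induces in the collecting duct, changed most among the probes that were higher. Its signals in the 4 *Pkd1*V/V kidneys were 2272, 1499, 1301 and 1313, against 405, 595, 351 and 615 in the wild-type kidneys. Every *Pkd1*V/V kidney lay above every wild-type kidney, and *Pkd1*V/V replicate 1 was the highest of all. The means were 1596 ± 459.5 in *Pkd1*V/V and 491.6 ± 132.9 in wild-type kidneys (SD, n = 4 each), a log2 change of 1.67 (SE 0.23, 95% confidence interval 1.15 to 2.19) and 3.18-fold. The change was called by limma (adjusted *P* = 0.00105), and the exact permutation test over the 8 kidneys gave *P* = 0.0286 (two-sided), the smallest it can give with 4 against 4. Of all probes, 166 (1.17%) rose more. Without *Pkd1*V/V replicate 1 the change was 1.49.

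The beta subunit gene *Scnn1b* rose less. Its signals were 2912, 2557.5, 2238 and 2349 in *Pkd1*V/V kidneys, against 909, 1405, 1046 and 1381 in wild-type kidneys. The groups did not overlap, and the SD was 11.8% of the mean in *Pkd1*V/V and 20.8% in wild-type kidneys. The means were 2514 ± 296 in *Pkd1*V/V and 1185 ± 246 in wild-type kidneys, a log2 change of 1.09 (SE 0.17, limma adjusted *P* = 0.00163, exact permutation *P* = 0.0286). This corresponds to 2.13-fold, and 496 probes (3.49%) rose more.

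The gamma subunit gene *Scnn1g*, whose product is cut by proteases to open the channel, had signals of 996, 1186.5, 1529 and 1201 in *Pkd1*V/V kidneys and 876, 816.5, 737 and 738 in wild-type kidneys. The groups did not overlap, with the lowest *Pkd1*V/V kidney 996 and the highest wild-type kidney 876. The means were 1228 ± 221 and 791.8 ± 67.5 in *Pkd1*V/V and wild-type kidneys, and the log2 change was 0.61 (SE 0.15, limma adjusted *P* = 0.0146, exact permutation *P* = 0.0286), 1.53-fold.

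Because each kidney carries all 3 subunits, the difference between the log2 signals of a pair of subunits was also taken within each kidney, and 3 pairs were compared between genotypes by exact permutation tests. *Scnn1a* minus *Scnn1b* averaged -0.68 ± 0.22 in *Pkd1*V/V and -1.26 ± 0.19 in wild-type kidneys, a shift of 0.58 (exact *P* = 0.0286, adjusted over the 3 pairs 0.0429). *Scnn1a* minus *Scnn1g* averaged 0.35 ± 0.60 in *Pkd1*V/V and -0.71 ± 0.42 in wild-type kidneys, a shift of 1.06 (exact *P* = 0.0286, adjusted 0.0429). On these probes, 1 for each subunit, the log2 change of *Scnn1a* was therefore larger than that of either partner. How far the probes differ in their response was not tested. *Scnn1b* minus *Scnn1g* averaged 1.03 ± 0.41 in *Pkd1*V/V and 0.55 ± 0.37 in wild-type kidneys, a difference of 0.48 (exact *P* = 0.143, adjusted 0.143), and its groups overlapped. In a comparison added after the data were seen, the shifts without *Pkd1*V/V replicate 1 were 0.47, 0.78 and 0.31 for the 3 pairs in this order, and without wild-type replicate 4 they were 0.61, 1.21 and 0.59. The groups of both *Scnn1a* pairs still did not overlap. With all kidneys the gap for *Scnn1a* minus *Scnn1g* was narrow. The lowest *Pkd1*V/V kidney was at -0.23 and the highest wild-type kidney at -0.26.

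*Hsd11b2* encodes the enzyme that inactivates corticosterone in aldosterone target cells and so keeps the mineralocorticoid receptor free for aldosterone. Its signals were 1423, 1682, 2405 and 2289 in *Pkd1*V/V kidneys, against 1543, 1132.5, 1009 and 790.4 in wild-type kidneys. *Pkd1*V/V replicate 1 lay below wild-type replicate 1, so the groups overlapped. The means were 1950 ± 473 in *Pkd1*V/V and 1119 ± 316 in wild-type kidneys, a log2 change of 0.80 (SE 0.23, limma adjusted *P* = 0.0329, exact permutation *P* = 0.0571), 1.74-fold. Without *Pkd1*V/V replicate 1 the change was 0.94, and without wild-type replicate 4 it was 0.65, and both were called. The call was lost when no filter on dim probes was used (adjusted *P* = 0.114 in limma).

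**Figure D2:**
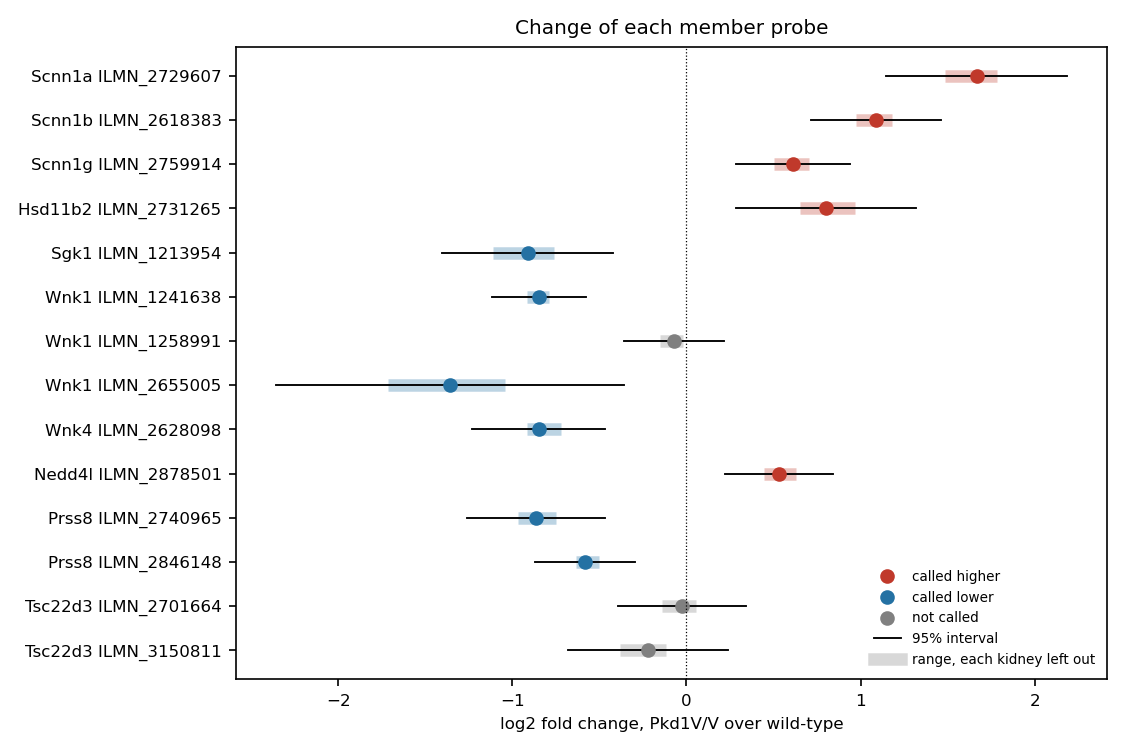
Log2 change (*Pkd1*V/V minus wild-type) of each of the 14 probes with its 95% confidence interval, n = 4 kidneys per group, with called and uncalled probes marked apart. *Scnn1a* has the largest rise, 1.67, and a dim *Wnk1* probe the largest fall, -1.36.

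*Sgk1*, the kinase gene that aldosterone and glucocorticoids induce, went in the other direction from the subunits. Its signals were 2945, 1419, 1902 and 1823 in *Pkd1*V/V kidneys, against 3978, 3029, 3393 and 4522 in wild-type kidneys. The groups did not overlap, although *Pkd1*V/V replicate 1, which stood apart in several marker lists, came close to the lowest wild-type kidney. The means were 2022 ± 650.5 in *Pkd1*V/V and 3730 ± 657 in wild-type kidneys, and the log2 change was -0.91 (SE 0.22, 95% confidence interval -1.40 to -0.42, limma adjusted *P* = 0.0151, exact permutation *P* = 0.0286). Without *Pkd1*V/V replicate 1 the change was -1.11. Without wild-type replicate 4, the highest of all, it was -0.81 (limma adjusted *P* = 0.0384), and without both kidneys it was -1.01 (limma adjusted *P* = 0.00465).

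The RefSeq promoter windows hold 6 of the 10 genes, in 13 windows. *Scnn1a*, *Hsd11b2*, *Nedd4l* and *Prss8* have no window and were not searched. Of the 6 genes, *Sgk1* and *Tsc22d3* had a steroid response half-site close to a start of transcription. The half-site searched was AGAACA, or its reverse complement TGTTCT, within the 250 bases before each start. It occurred in 4 of the 13 windows of these genes, and in 5284 of all 32851 windows (16.1%). The 4 were 3 of the 6 windows of *Sgk1* and 1 of the 3 windows of *Tsc22d3*. A pair of half-sites facing each other 3 bases apart, the form that steroid receptors bind as a dimer, was found in 3 of the 32851 windows (0.0091%). In 1 of these, a window of *Sgk1*, the pair began 189 bases before that window's start and 965 bases before the next *Sgk1* start. The *Sgk1* stretch with the pair and the *Tsc22d3* stretch with the half-site are shown with these letters in capitals, from build GRCm38.p6, at chr10:21993671-21993745 on the plus strand and chrX:140600672-140600737 on the minus strand. Each is written 5′ to 3′, and a match is a description of the sequence and says nothing of binding.
*Sgk1*: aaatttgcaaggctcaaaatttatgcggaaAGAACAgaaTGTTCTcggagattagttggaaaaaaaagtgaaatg
*Tsc22d3*: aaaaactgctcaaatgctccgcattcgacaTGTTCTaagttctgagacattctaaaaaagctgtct

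*Tsc22d3*, which encodes the glucocorticoid-induced leucine zipper protein GILZ, was not called by either probe. The brighter probe (ILMN_3150811) had signals of 1434, 908, 895 and 1005 in *Pkd1*V/V kidneys and 865, 1293, 1296 and 1505 in wild-type kidneys. The groups overlapped, and *Pkd1*V/V replicate 1 was the highest of its group. The log2 change was -0.22 (95% confidence interval -0.68 to 0.24, limma adjusted *P* = 0.488, exact permutation *P* = 0.400). Leaving out *Pkd1*V/V replicate 1 gave -0.37 and leaving out wild-type replicate 4 gave -0.12, and neither was called. The dim probe (ILMN_2701664) averaged 40.3 ± 8.92 in *Pkd1*V/V and 41.6 ± 10.05 in wild-type kidneys, a log2 change of -0.03 (95% confidence interval -0.40 to 0.34, limma adjusted *P* = 0.926).

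The WNK kinases act upstream of the sodium chloride cotransporter and also affect the channel. The brightest of 3 *Wnk1* probes (ILMN_1241638) had signals of 1154, 1284, 1311 and 1506 in *Pkd1*V/V kidneys and 2175, 2404, 2355 and 2539 in wild-type kidneys. The groups lay far apart relative to their spread, with means of 1314 ± 145.5 in *Pkd1*V/V and 2368 ± 150.5 in wild-type kidneys and a log2 change of -0.85 (SE 0.12, limma adjusted *P* = 0.00113, exact permutation *P* = 0.0286). *Wnk1* has a full-length form and a kidney-specific short form that lacks most of the kinase domain, and the annotation used here does not place its probes on either.

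The other *Wnk1* probes were dim. One (ILMN_2655005) had signals of 82.9, 103.4, 34.2 and 18.8 in *Pkd1*V/V kidneys and 66.3, 215.2, 171.1 and 235.2 in wild-type kidneys, and was called lower (log2 change -1.36, SE 0.45, limma adjusted *P* = 0.0545). Its groups overlapped, the exact permutation *P* was 0.0857, and in 5 of the 8 analyses that left out a single kidney it was no longer called (adjusted *P* 0.118 to 0.126). Those kidneys were replicates 3 and 4 of *Pkd1*V/V and replicates 2, 3 and 4 of wild-type. The other dim probe (ILMN_1258991) had means of 45.4 ± 7.65 in *Pkd1*V/V and 48.3 ± 5.79 in wild-type kidneys and was not called (log2 change -0.07, SE 0.13, limma adjusted *P* = 0.736).

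*Wnk4* had signals of 104.3, 106.8, 66.0 and 92.8 in *Pkd1*V/V kidneys and 153.1, 181.2, 156.1 and 225.9 in wild-type kidneys. Every *Pkd1*V/V kidney lay below every wild-type kidney. The means were 92.5 ± 18.7 in *Pkd1*V/V and 179 ± 33.7 in wild-type kidneys, a log2 change of -0.85 (SE 0.17, limma adjusted *P* = 0.00642, exact permutation *P* = 0.0286).

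*Nedd4l* encodes NEDD4-2, the ligase that marks the channel for removal. Its signals were 1472, 1289, 1290.4 and 1251 in *Pkd1*V/V kidneys, against 755, 922.5, 877 and 1123 in wild-type kidneys. The groups did not overlap, and the 4 *Pkd1*V/V kidneys lay within a narrow range. The means were 1326 ± 99.5 in *Pkd1*V/V and 919 ± 153 in wild-type kidneys, a log2 change of 0.53 (SE 0.14, limma adjusted *P* = 0.0221, exact permutation *P* = 0.0286), 1.45-fold.

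*Prss8* encodes prostasin, a membrane-anchored serine protease that raises the activity of the channel. The first of its 2 probes (ILMN_2740965) had signals of 792, 846, 1257 and 1217 in *Pkd1*V/V kidneys and 2065, 1749.6, 1993 and 1610.1 in wild-type kidneys. The second (ILMN_2846148) had 488, 616.5, 572 and 637 in *Pkd1*V/V kidneys and 963, 917, 828 and 782 in wild-type kidneys. Neither probe's groups overlapped, and both were lower in *Pkd1*V/V kidneys. The log2 changes were -0.86 (SE 0.18, limma adjusted *P* = 0.00700) for the first and -0.58 (SE 0.13, limma adjusted *P* = 0.00980) for the second, with an exact permutation *P* of 0.0286 for each.

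The cells that use the channel were followed by marker genes. Of 7 principal cell markers tested, 3 were higher in *Pkd1*V/V kidneys and 0 were lower, and the median change was 0.29. Across the array 15.2% of probes were higher and 14.7% were lower, and a list of 7 is too short to set against these shares. The 3 were *Krt8*, a keratin of simple epithelia (1.49), *Gata3*, a transcription factor of the collecting duct (0.96), and *Fxyd4*, a regulator of the sodium pump (0.45). The water channel *Aqp2*, which defines principal cells, overlapped between groups (log2 change 0.11, limma adjusted *P* = 0.858), with signals of 416, 837, 1435 and 647 in *Pkd1*V/V and 439, 625, 823 and 1038 in wild-type kidneys. The other 3 tested markers, *Aqp3*, *Aqp4* and *Ptges*, also overlapped and were not called. The summed signal of the list was 13962 to 18593 in *Pkd1*V/V and 7979 to 8612 in wild-type kidneys, and *Krt8* made up much of it. Without *Krt8*, left out after the data were seen, the sum was 5026 to 10169 in *Pkd1*V/V and 4667 to 5565 in wild-type kidneys, and the groups overlapped.

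Set against the mean log2 signal of these 7 markers in the same kidney, the alpha subunit still separated the groups: *Scnn1a* lay -0.38 to 1.20 from that mean in *Pkd1*V/V kidneys and -1.25 to -0.42 in wild-type kidneys, a difference of 1.14. *Scnn1b* (difference 0.56), *Scnn1g* (0.08) and *Hsd11b2* (0.27) overlapped between the groups on this measure. Without *Pkd1*V/V replicate 1 the difference was 0.85 for *Scnn1a* and 0.39 for *Scnn1b*, and without wild-type replicate 4 it was -0.01 for *Scnn1g* and 0.07 for *Hsd11b2*. With *Krt8* left out of the markers, the groups of *Scnn1a* still did not overlap. These are descriptions, because the markers themselves differed between groups.

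Markers of other segments and cells moved with genotype too. For the distal convoluted tubule, where the sodium chloride cotransporter and the WNK kinases act, 3 of 4 markers were lower. They were the cotransporter gene *Slc12a3* itself, *Pvalb* (-2.16) and *Kcnj16* (-0.61), whereas *Trpm6* was not called (0.20). The summed signal was 1426 to 2607 in *Pkd1*V/V and 5447 to 6565 in wild-type kidneys. *Slc12a3* and *Pvalb* made up most of that sum, so it is not separate from the *Slc12a3* result given below. For the connecting tubule the summed signal, which *Klk1* dominates and in which *Calb1* is at 0, was 2597 to 3078 in *Pkd1*V/V and 6968 to 11420 in wild-type kidneys. The rest of that list did not follow *Klk1*: *Slc8a1*, a sodium calcium exchanger, was called higher (0.41, limma adjusted *P* = 0.0938), *Trpv5* was not called (0.14), and the sum without *Klk1* was 614 to 994 in *Pkd1*V/V and 531 to 653 in wild-type kidneys. All 6 macrophage and leukocyte markers tested were higher (summed signal 2043 to 8271 in *Pkd1*V/V, 748 to 894 in wild-type), and 4 of 4 proximal tubule markers were lower. Of 6 intercalated cell markers tested, 2 were lower, 0 were higher and 4 were not called, a share near the 29.9% of all probes. The 2 were *Slc4a1* (-1.87) and *Slc26a4* (-1.05), which made up most of the summed signal. That sum was 770 to 1046 in *Pkd1*V/V and 1819 to 2001 in wild-type kidneys. The part of the marker shifts in the values above was not tested.

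**Figure D3:**
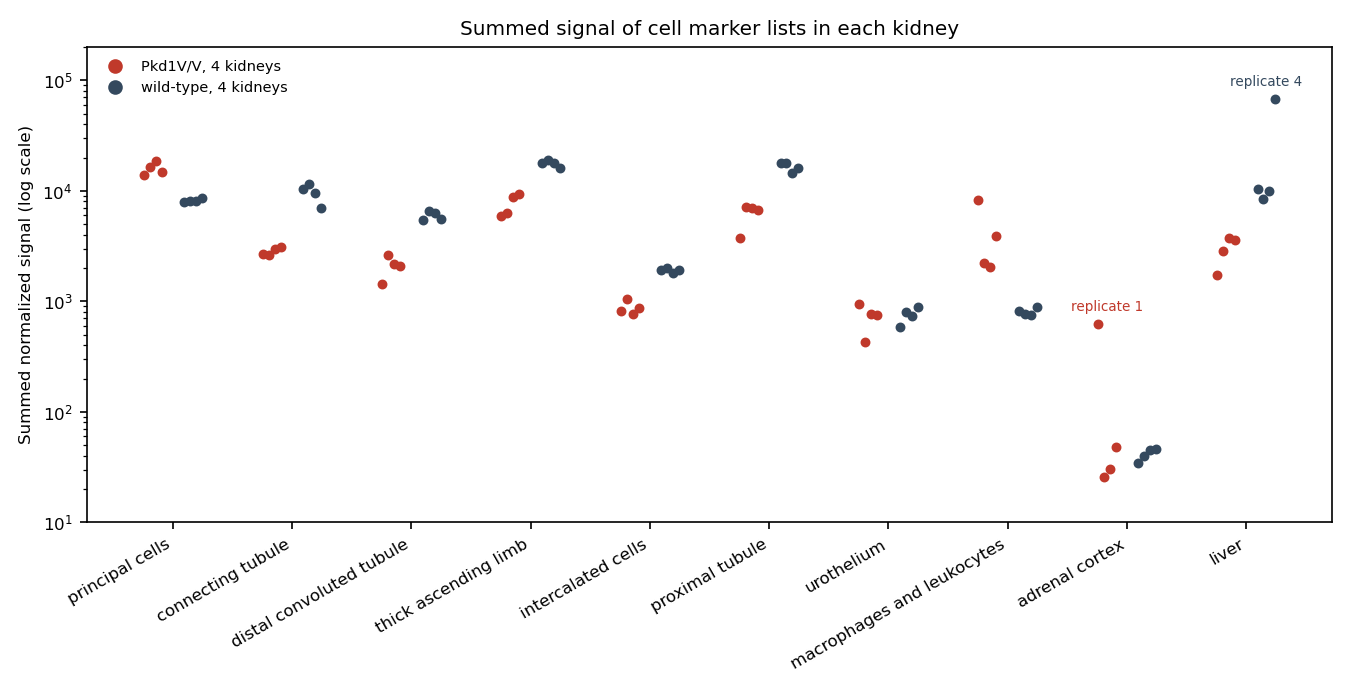
Summed signal of each marker list in every kidney (log scale), with *Pkd1*V/V kidneys left of wild-type kidneys. The sum of principal cell markers, of which *Krt8* is a large share, is higher in all *Pkd1*V/V kidneys (13962 to 18593 against 7979 to 8612), the distal convoluted tubule sum is lower in all, and the adrenal and liver lists each single out 1 kidney.

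Around the members, 57 further genes of the pathway were listed, of which 49 are on the array and 47 were tested. Of these, 7 were higher in *Pkd1*V/V kidneys, 11 were lower and 29 were not called, with a median change of -0.06. Across the array 29.9% of probes were called, 15.2% higher and 14.7% lower, and some of the small lists that follow had shares near these. Among 9 steroid receptor and kinase input genes, 0 were higher and 3 were lower. *Nr3c1*, the glucocorticoid receptor, had signals of 52.0 to 57.9 in *Pkd1*V/V and 70.1 to 106.1 in wild-type kidneys, a log2 change of -0.48 (limma adjusted *P* = 0.0253). *Mtor*, whose complex 2 phosphorylates SGK1, changed by -0.49, and *Sgk2*, a relative of *Sgk1* expressed in the proximal tubule, by -1.68 and -2.16 on its 2 probes. The mineralocorticoid receptor gene *Nr3c2* is not named by any probe in the annotation used here.

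Among 9 channel turnover genes, *Cnksr3*, a scaffold that aldosterone induces for the channel's regulators, rose by 0.91 (limma adjusted *P* = 0.0125), with signals of 116.6 to 178.1 in *Pkd1*V/V and 45.2 to 99.5 in wild-type kidneys. *Cav1*, the main protein of caveolae, rose by 0.76, and 7 genes were not called. Of 7 proteases and inhibitors tested, *St14* (matriptase), a protease that can act with prostasin, rose by 0.81. *Klk1*, the tissue kallikrein of the connecting tubule, was lower (log2 change -2.11, limma adjusted *P* = 0.000149), with 1694 to 2388 in *Pkd1*V/V and 6394 to 10767 in wild-type kidneys. *Plau*, urokinase, was also lower (-0.55).

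Among 9 genes of the WNK pathway, *Stk39*, the SPAK kinase that WNK kinases phosphorylate, rose by 0.51, and 4 were lower. *Slc12a3*, the sodium chloride cotransporter, had signals of 647, 960, 872 and 994 in *Pkd1*V/V kidneys and 2635, 2635, 2834 and 2490 in wild-type kidneys. The log2 change was -1.61 (limma adjusted *P* = 0.000158), and both of its other probes were also called lower. *Slc12a1*, the cotransporter of the thick ascending limb, changed by -1.51 on its brightest probe. It is also 1 of 5 listed markers of that segment, of which 4 were lower and *Cldn16* was not called (0.04). Their summed signal was 5913 to 9281 in *Pkd1*V/V and 16095 to 18793 in wild-type kidneys. *Kcnj1*, the potassium channel ROMK, changed by -1.18 on one probe, whereas a second probe gave -0.49 and was not called (limma adjusted *P* = 0.393).

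Among 8 steroid-induced genes, which respond to several signals, 1 was higher, 2 were lower and 5 were not called. *Fkbp5*, a co-chaperone that steroids induce strongly, had signals of 438, 185, 158 and 160 in *Pkd1*V/V kidneys and 41 to 69 in wild-type kidneys, and rose by 1.72 (limma adjusted *P* = 0.00274). *Pkd1*V/V replicate 1, which stood apart in adrenal, leukocyte and proximal tubule markers, was by far the highest, and without it the change was 1.39. Which of these traits goes with its *Fkbp5* signal was not tested. *Ndrg2* was lower (-0.97). *Dusp1*, a phosphatase of MAP kinases, was called lower (-0.41, limma adjusted *P* = 0.0502), but adjusted *P* was 0.104 to 0.126 when any of 5 kidneys was left out (replicates 1, 2 and 4 of *Pkd1*V/V, replicates 1 and 3 of wild-type), 0.113 after median scaling, and 0.141 without both kidneys that stood apart. Of 5 genes that act on *Scnn1a* transcription or its collecting duct setting, *Elf5*, a factor of principal cells, rose by 0.70, and *Grhl2*, a factor of duct epithelium, by 0.56, and 3 were not called.

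**Figure D4:**
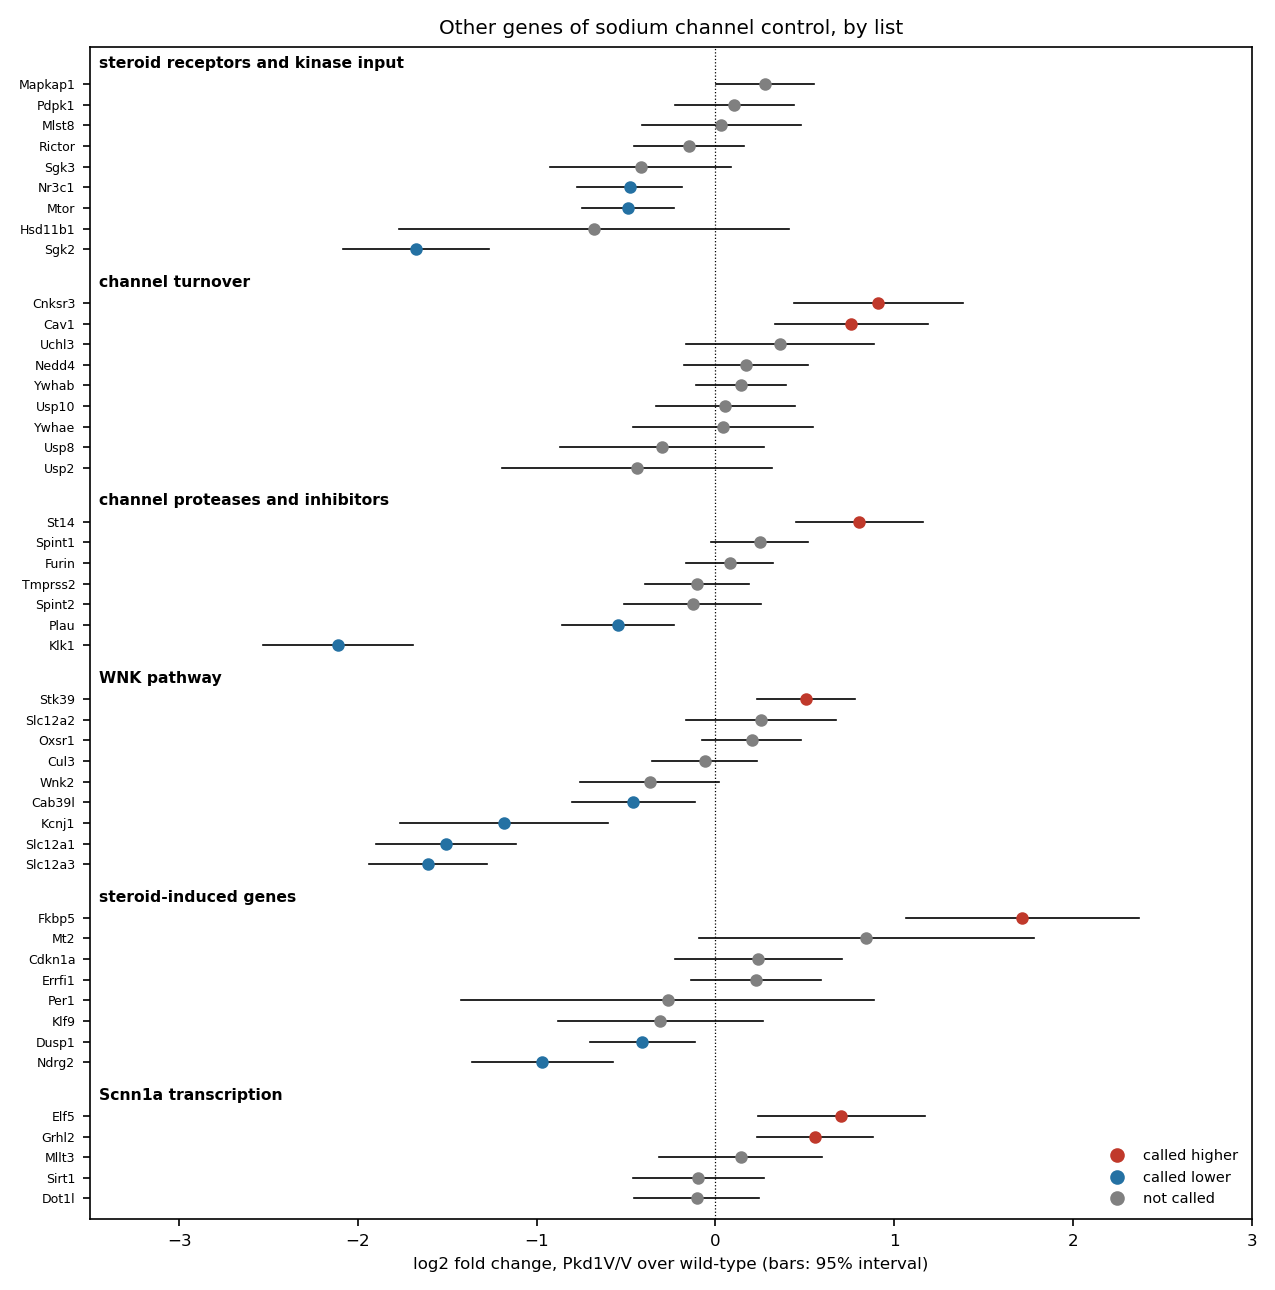
Log2 change (*Pkd1*V/V minus wild-type) of the 47 tested genes of the pathway lists, grouped by role, n = 4 kidneys per group. *Klk1* (-2.11), *Sgk2* (-1.68) and *Slc12a3* (-1.61) lie lowest, and *Fkbp5* (1.72) highest.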

How the data were processed

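Total RNA of whole kidneys was extracted by the authors from the pellet of a homogenate and hybridised to Illumina bead arrays. The deposited table used here holds background-subtracted signal intensities without normalisation between arrays, with the authors' detection p-value, bead number and bead standard error per probe. How the detection p-value was computed is not given in the sources used here. A second deposited table holds intensities that the authors normalised, and served as an alternative. Members and lists were chosen with earlier results of these data known.

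Signals were quantile-normalised, set to 0 where below 0, and transformed as log2(signal + 16) in R 4.3.3. Probes with a detection p-value under 0.05 on at least 3 of 8 arrays were fitted per probe with lmFit and eBayes of limma 3.58.1, without covariates, and called at an adjusted *P* under 0.1. Single values were compared by the exact permutation test over 70 assignments. Symbols came from the platform annotation, 23962 of 23978 named probes were updated by gene identifier, and 1719 probes have no named gene. The brightest tested probe on average stood for a pathway gene. Genes named were all members, up to 3 higher and 3 lower per pathway list by adjusted *P*, *Nr3c1*, *Nr3c2* and *Slc12a3*, and markers a sentence needs. Member probes had 22 to 61 beads per array and bead standard errors of 2.24% to 17.9%, and the number of arrays limits the precision. The limma procedure was checked on simulated data. Alternatives were 3 other normalisations, the offset, the filter, 1 probe per gene, a variance trend with array weights, a stricter threshold, SAM with the methods' *delta* of 1.0, each kidney left out, and a replicate block. Promoter windows are RefSeq's.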

Additional observations from a re-analysis of the deposited data

Results flagged for a closer look

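In groups of 4 kidneys, the highest or lowest kidney was set against the others by the ratio of its gap to the whole range, with Dixon's 95% critical value as the limit. Of 82 groups examined, 6 passed, and about 1 in 20 would by chance. *Pkd1*V/V replicate 1 was the highest for *Fkbp5* (ratio 0.847) and for the summed adrenal cortex markers (0.843), and the lowest for *Sgk2* (0.909, the brighter probe) and for the summed proximal tubule markers (0.923). *Pkd1*V/V replicate 3 was the highest of its group for *Dusp1* (0.874). Wild-type replicate 4 was the highest for the summed liver markers (0.897).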

How the results depend on the processing

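The number of member probes called stayed within 9 to 11 under the alternatives run, against 11. Of the member probe results, 277 kept their direction and call, 8 lost the call and 4 changed sign. The sign changes were all of the dim *Tsc22d3* probe, which was not called, and its change lay between -0.139 and 0.057 when single kidneys were left out. The losses were *Hsd11b2* without the filter on dim probes (adjusted *P* = 0.114 in limma) and the dim *Wnk1* probe without that filter (0.193), at an adjusted *P* under 0.05 and without single kidneys. Of the results of the pathway genes named in the text, 348 kept their call and 9 lost it, 8 of them *Dusp1* and 1 *Elf5* without the filter (0.117). Over all 47 tested pathway genes, 16 to 20 were called under the alternatives, against 18. The replicate numbers did not pair the kidneys (correlations of deviations -0.25, 0.32, 0.21 and -0.28). With the number as a block, 3750 probes were called across the array, against 4253, and 5 member probes were higher and 6 lower, as without it. The share of higher calls was 50.9%, and 55.6% after median scaling. With 4 kidneys a group and dim probes for *Wnk4*, *Tsc22d3* and parts of *Wnk1*, small changes of these genes may be missed.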
